A study of Mus musculus with 26 samples.

Results

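The imprinted domain of *Kcnq1ot1* on distal mouse chromosome 7 was examined in ES cells with and without ZFP57. Its 10 genes, *Kcnq1ot1*, *Kcnq1*, *Cdkn1c*, *Phlda2*, *Slc22a18*, *Cd81*, *Tssc4*, *Ascl2*, *Nap1l4* and *Th*, were taken by symbol from an expression table of 24409 genes, as a list of known genes of the domain with no threshold on their values. All 10 were found in the table and placed on the genome, where they span 657.104 kb of chromosome 7 (GRCm38, mm10). The RNA-seq data compared 3 wild-type (WT) and 2 ZFP57 knockout (KO) libraries of male C57BL/6J ES cells, and ZFP57 ChIP-seq peaks of the WT cells gave the bound sites. ES cells are pluripotent cells grown from the inner cell mass. Both genotypes came from embryos collected as morulae at E2.5 and were grown with inhibitors of Erk and Gsk3 plus LIF for at most 15 passages. The KO was zygotic, a homozygous disruption of the coding exons for the KRAB domain and the zinc fingers, so maternal ZFP57 of the oocyte was not removed. The numbered libraries were taken as replicates, and since their link to separate lines is not given in the sources used here, p-values measure only the spread between these samples.

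Genomic imprinting restricts the expression of some genes to the copy inherited from the mother or from the father. The domain is governed by KvDMR1, an imprinting control region (ICR) inside an intron of *Kcnq1* that carries DNA methylation on the maternal copy. On the paternal copy the region is unmethylated and drives *Kcnq1ot1*, a long noncoding RNA transcribed antisense to *Kcnq1* that keeps neighbouring protein-coding genes silent in cis. ZFP57 is a KRAB zinc finger protein that binds the methylated hexanucleotide TGCCGC and protects ICR methylation after fertilisation. The paper on these cells reports that KvDMR1, unlike the other ICRs it assayed, kept its DNA methylation in the zygotic KO. Loss there was seen only in KO cells of a mixed strain background that also lacked maternal ZFP57. A repressive histone mark was nevertheless lost at KvDMR1 in the zygotic KO. The part of either mark in the expression differences below was not tested. Several genes farther out, among them *Ascl2*, *Cd81*, *Tssc4* and *Nap1l4*, are known as imprinted mainly in the placenta.

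A single ZFP57 peak lay within the domain, and it was at KvDMR1. The peak covered chr7:143295535-143295914 (mm10, 380 bp) and was present with the same start and end in the C57BL/6J list of 1423 peaks and in a second list of 743 peaks named for hybrid ES cells. All 743 intervals of the second list are identical to intervals of the first, and no ZFP57 library behind it was used here, so it is a subset and not a second observation of binding. The KvDMR1 peak lay in the transcribed part of *Kcnq1ot1*, between 633 and 1012 bp from its start, and in intron 11 of *Kcnq1* (RefSeq NM_008434). The central 300 bases of the peak are shown because they hold all of its copies of the hexanucleotide. Capitals mark TGCCGC or, on the opposite strand, GCGGCA. The RefSeq promoter window of *Kcnq1ot1* is shown beside it to compare the bound interval with the start of the RNA.
KvDMR1 peak centre, chr7:143295575-143295874, plus strand (GRCm38.p6): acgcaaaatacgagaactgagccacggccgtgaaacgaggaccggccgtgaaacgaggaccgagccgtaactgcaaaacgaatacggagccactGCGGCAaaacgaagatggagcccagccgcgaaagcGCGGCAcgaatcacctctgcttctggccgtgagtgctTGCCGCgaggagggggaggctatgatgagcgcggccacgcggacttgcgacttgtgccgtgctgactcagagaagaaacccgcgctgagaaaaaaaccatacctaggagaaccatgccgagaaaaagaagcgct
Kcnq1ot1 promoter, chr7:143296498-143296797, minus strand (GRCm38.p6): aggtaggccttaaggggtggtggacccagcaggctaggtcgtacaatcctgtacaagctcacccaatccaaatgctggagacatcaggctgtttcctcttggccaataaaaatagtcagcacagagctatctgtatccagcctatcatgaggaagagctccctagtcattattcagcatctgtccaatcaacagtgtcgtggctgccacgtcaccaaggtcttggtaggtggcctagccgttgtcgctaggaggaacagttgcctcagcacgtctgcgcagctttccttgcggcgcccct

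The bound sequence carried 3 copies of the hexanucleotide, 1 on the plus and 2 on the minus strand, whereas the promoter window, which ended 583 bp away, carried 0. The letters were searched on both strands of the window. Of all 1423 peaks, 92% held at least 1 copy and 6.75% held 3 or more. Of 32817 RefSeq promoter windows of the same 300 bases, 11.6% held a copy. The 7 members with such a window, *Kcnq1ot1*, *Phlda2*, *Slc22a18*, *Cd81*, *Tssc4*, *Ascl2* and *Th*, had none in it.

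CpG dinucleotides, the sites of DNA methylation, were dense in the KvDMR1 peak. It held 33 CpGs, or 8.68 per 100 bp, against a median of 3.49 over all peaks. Only 14 of the 1423 peaks, itself among them, were as dense or denser. GC content was 57.1%, and none of the peak was soft-masked as repeat, whereas the median peak was soft-masked over 72.0% of its length. The peaks at the ICRs of 2 other antisense RNAs were similar in kind. The peak at *Airn* (chr17:12741474-12742445) held 6 copies of the hexanucleotide and 7.41 CpGs per 100 bp, and that at *Nespas* (chr2:174295702-174296317) held 5 copies and 5.19 CpGs per 100 bp.

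**Figure D1:**
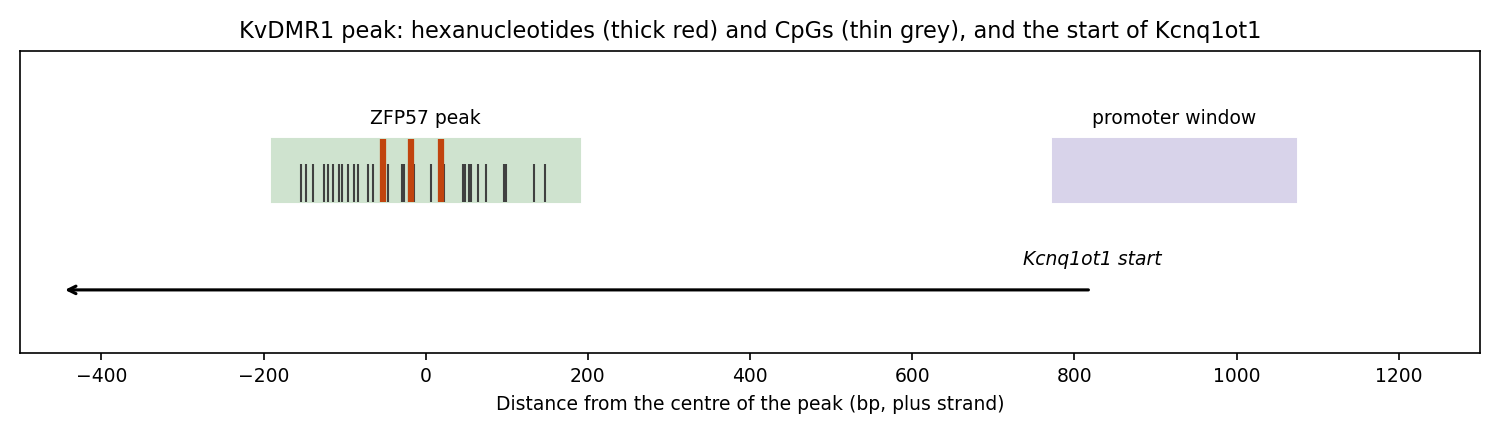
Map of the KvDMR1 peak, with distance from the peak centre in bp on the horizontal axis. The green box is the ZFP57 peak of 380 bp, red bars are the 3 hexanucleotides, grey bars the 33 CpGs, and the purple box the promoter window of 300 bases. The arrow starts at the first base of *Kcnq1ot1*, and the peak lies inside the transcript and apart from the promoter window.

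Binding elsewhere in the region was sparse. Of the 10 members, 2 had a peak within 20 kb, *Kcnq1ot1* and *Kcnq1*, which share the KvDMR1 peak, and the number was the same at 50 kb. The other members lay from 162.425 kb (*Cdkn1c*) to 395.54 kb (*Th*) from it. Within 500 kb of the members there were 2 further peaks, both near *H19*, the noncoding RNA of the neighbouring *Igf2* and *H19* imprinted domain. One (chr7:142579955-142580356) was in both lists, and the other (chr7:142581726-142582099) was in the C57BL/6J list only, which compares a list with its subset and not strains. The C57BL/6J peaks were called in WT cells. ZFP57 ChIP-seq of 2 KO samples belongs to the series, but no peak list of it was used here, so binding was not compared between the genotypes, and the lists carry no peak heights.

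The targeted gene was lower in both KO libraries. *Zfp57* was listed at 75.94, 72.34 and 70.55 FPKM in WT and at 19 and 21.62 in KO. FPKM counts fragments per kilobase of transcript, scaled for library size. The table does not show which exons these fragments came from. The smallest steps between values put 1 fragment on 1 kb at 0.0171 to 0.0196 FPKM, or 50.9 M to 58.4 M fragments per library. ES cell markers summed to 554.13 to 570.69 FPKM over 6 genes in WT and to 591.73 to 646.55 in KO. Of these, *Pou5f1*, *Klf4* and *Esrrb* were called higher, against 18.8% of all tested genes, and *Nanog*, *Sox2* and *Zfp42* were not called. Of 5 fibroblast markers, *Col3a1* and *Lum* were at 0 in all libraries and the summed level was at most 0.11 FPKM. Each gene with a mean of at least 0.1 FPKM was tested with limma on log2(FPKM + 0.1), a scale that understates changes of low genes, and called at a Benjamini-Hochberg adjusted p under 0.05 over all tested genes.

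Of the 10 members, 8 were expressed highly enough to be tested and 4 were called, against 41.1% of all 14612 tested genes. *Cd81*, *Kcnq1ot1* and *Tssc4* were higher in ZFP57 KO cells, against a background of 18.8% of genes called higher. *Phlda2* was lower, against 22.3% called lower. The share of members called was thus near that of all genes, and the description below concerns the single genes. The median log2 difference, KO minus WT, was 0.12 over the 8 tested members and -0.01 over all tested genes. In 5 of the 8 the WT and KO libraries did not overlap, as was so for 63.4% of all tested genes, and 5 had an unadjusted limma p under 0.05, against 50.1%. At a limma adjusted p under 0.01, 2 members were called, against 22.5% of tested genes. On chromosome 7, 426 of 1164 tested genes were called. ES cells are bulk samples, in which fewer cells expressing a gene and less RNA per cell cannot be told apart, and reads of the maternal and paternal copies were not separated in these values.

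**Figure D2:**
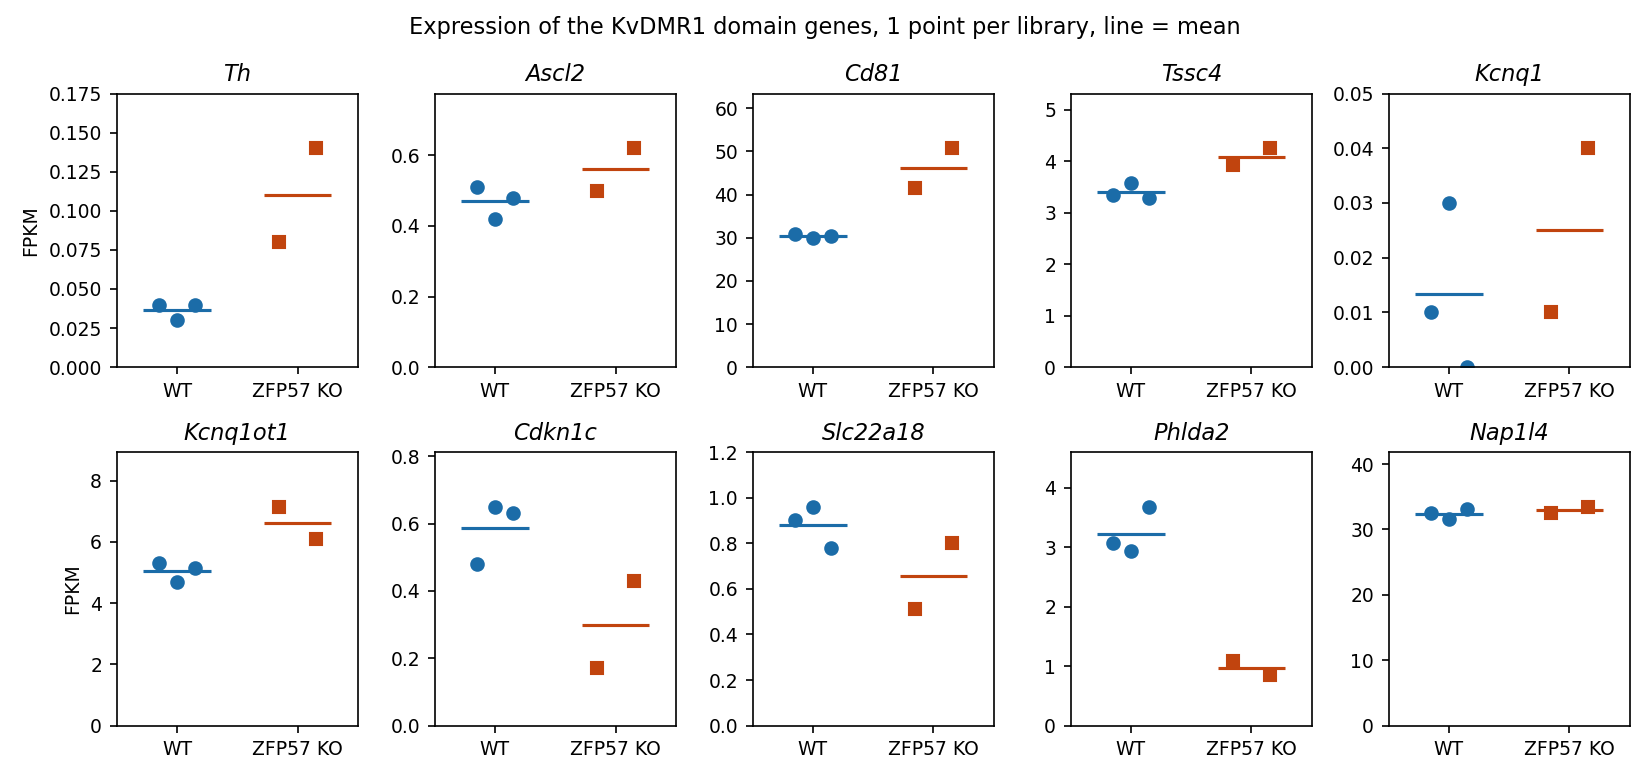
FPKM of the 10 members in each library, ordered along the chromosome. Circles are the 3 WT and squares the 2 KO libraries, lines are group means, and each vertical axis starts at 0. *Phlda2* in KO (0.86 and 1.09) lies below all WT libraries, and *Cd81* in KO (41.61 and 50.73) above them.

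*Kcnq1ot1*, the noncoding RNA that begins at the ICR, was modestly higher in KO. It was listed at 5.31, 4.68 and 5.14 FPKM in WT and at 7.15 and 6.08 in KO. Both KO libraries exceeded every WT library. The means were 5.04 ± 0.326 (SD, n = 3) and 6.62 ± 0.757 (SD, n = 2), 1.31-fold higher in KO, and the log2 difference was 0.38 (SE 0.093, 95% interval 0.16 to 0.61, limma adjusted p = 0.0198). With an exon length of 83437 bases as annotated, this rests on about 21847 to 31251 fragments per library, so counting error is small and the spread between libraries sets the precision. The call was lost without WT replicate 2 (log2 difference 0.33, limma adjusted p = 0.0617) or without WT replicate 3 (0.40, limma adjusted p = 0.0549). The log2 difference was 0.27 without KO replicate 1 and 0.50 without KO replicate 2, each leaving 1 KO sample.

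*Kcnq1*, the voltage-gated potassium channel gene that hosts the ICR, was near the limit of detection. Its values were 0.01, 0.03 and 0.00 FPKM in WT and 0.01 and 0.04 in KO. Those values stand for about 0 to 7 fragments per library over 3029 exonic bases and were under the expression minimum, and the groups overlapped. With no minimum, the log2 difference was 0.14 (SE 0.16, limma adjusted p = 0.571). Its transcript runs across *Kcnq1ot1* on the other strand, and 1 exon of 121 bases lies within the noncoding RNA. Whether the counting used strand is not given in the sources used here, so reads of the overlapping pair cannot be told apart.

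*Phlda2*, which encodes a small pleckstrin homology domain protein known to restrain placental growth, showed the largest difference of the tested members. It was listed at 3.07, 2.93 and 3.68 FPKM in WT and at 1.09 and 0.86 in KO. The highest KO value was far below the lowest WT value. The mean fell from 3.23 ± 0.399 (SD, n = 3) to 0.975 ± 0.163 (SD, n = 2), 3.31-fold lower in KO, with a log2 difference of -1.63 (SE 0.145, 95% interval -1.98 to -1.28, limma adjusted p = 7.06e-04). The transcript is short, with 737 exonic bases, and the values stand for about 124, 126 and 138 fragments in WT and 42 and 35 in KO. The 95% Poisson intervals of the counts were 103 to 163 over the WT libraries and 24.4 to 56.8 over the KO libraries, and did not meet. *Phlda2* was the sole member that was called with a log2 difference of at least 1 in size, as were 8.02% of all tested genes. It stayed called in each alternative fit that kept both KO libraries.

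*Cdkn1c*, which encodes the cyclin-dependent kinase inhibitor p57 and restrains cell division, was low in all libraries and did not pass the test. Its values were 0.48, 0.65 and 0.63 FPKM in WT and 0.17 and 0.43 in KO. Both KO libraries lay under the WT libraries, but they were far apart from each other, at about 17 and 46 fragments, and the second had a 95% Poisson interval of 33.7 to 61.4 that reached into the WT counts of 51 to 74. The means were 0.587 ± 0.0929 (SD, n = 3) and 0.300 ± 0.184 (SD, n = 2), and the log2 difference was -0.85 (SE 0.31, 95% interval -1.60 to -0.10, limma adjusted p = 0.0712). Without KO replicate 2 the difference was -1.34, and without KO replicate 1 it was -0.36, so the size depended on which KO library was used. Either fit leaves 1 KO sample, so only the log2 difference is given.

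The ratio of *Kcnq1ot1* to *Cdkn1c* in the same library compares the noncoding RNA with a gene it is known to silence. On the log2 scale, with 0.1 FPKM added to each, it was 3.22, 2.67 and 2.84 in WT and 4.75 and 3.54 in KO. Both KO ratios were above all WT ratios, with means 1.23 apart, or 0.63 without KO replicate 1 and 1.83 without KO replicate 2. An exact permutation test (two-sided) gave p = 0.1, the smallest that 3 against 2 libraries allow. The ratio is made from the same values as the genes above and adds no separate measurement.

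*Slc22a18*, an organic cation transporter gene between *Cdkn1c* and *Phlda2*, was listed at 0.90, 0.96 and 0.78 FPKM in WT and at 0.51 and 0.80 in KO. KO replicate 2 fell among the WT libraries. Its log2 difference of -0.40 did not pass the test (SE 0.20, 95% interval -0.89 to 0.09, limma adjusted p = 0.164). It was -0.12 without KO replicate 1 and -0.68 without KO replicate 2. *Nap1l4*, a nucleosome assembly protein gene and the most highly expressed member in WT, was listed at 32.54, 31.53 and 33.12 FPKM in WT and at 32.51 and 33.48 in KO. The groups overlapped, and the log2 difference of 0.03 had a 95% interval of -0.07 to 0.12 (limma adjusted p = 0.626). That interval covers only the spread between these libraries. With each library centred on its median, the *Nap1l4* difference was -0.0036.

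On the other side of KvDMR1, *Cd81* was higher in KO. This gene encodes a tetraspanin of the cell surface, and its values were 30.92, 29.95 and 30.39 FPKM in WT and 41.61 and 50.73 in KO. The WT libraries were close together and the KO libraries wider apart, with no overlap between them. The mean rose from 30.4 ± 0.486 (SD, n = 3) to 46.2 ± 6.45 (SD, n = 2), 1.52-fold, with a log2 difference of 0.59 (SE 0.082, 95% interval 0.40 to 0.79, limma adjusted p = 0.00266). *Cd81* stayed called in each alternative fit that kept both KO libraries, and over all 15 alternative fits its log2 difference was 0.45 to 0.74.

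*Tssc4*, whose start lies less than 1 kb beyond the end of *Cd81* on the same strand, differed less. It was listed at 3.34, 3.58 and 3.28 FPKM in WT and at 3.92 and 4.25 in KO. The KO libraries were above the WT libraries, 1.20-fold on the means, and the log2 difference was 0.26 (SE 0.078, 95% interval 0.07 to 0.45, limma adjusted p = 0.0407). This call was lost with no filter on low values, median centring, quantile normalization or a replicate block, and without any 1 WT library. With both KO libraries kept, the limma adjusted p ranged from 0.0331 to 0.173. Over all 15 alternative fits its log2 difference stayed between 0.20 and 0.31.

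*Ascl2*, which encodes a basic helix-loop-helix transcription factor needed for the spongiotrophoblast of the placenta, was low and did not pass the test. Its values were 0.51, 0.42 and 0.48 FPKM in WT and 0.50 and 0.62 in KO, with KO replicate 1 inside the WT range. The log2 difference was 0.21 (SE 0.167, 95% interval -0.20 to 0.61, limma adjusted p = 0.360), 0.34 without KO replicate 1 and 0.08 without KO replicate 2. *Th*, the tyrosine hydroxylase gene of catecholamine synthesis, was listed at 0.04, 0.03 and 0.04 FPKM in WT and at 0.08 and 0.14 in KO. These stand for 3 to 4 fragments in WT and 7 and 14 in KO, and the gene was under the expression minimum. With no minimum, its log2 difference of 0.61 passed the threshold (limma adjusted p = 0.0387), on Poisson intervals of 1.09 to 10.2 for WT replicate 1 and 2.81 to 14.4 for KO replicate 1 that overlap.

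Since FPKM is scaled for length, levels can be set beside each other within a library group. In WT the order by mean FPKM was *Nap1l4*, *Cd81*, *Kcnq1ot1*, *Tssc4*, *Phlda2*, *Slc22a18*, *Cdkn1c*, *Ascl2*, *Th* and *Kcnq1*. *Tssc4* and *Phlda2* overlapped in their WT libraries, as did *Cdkn1c* and *Ascl2*, and *Th* and *Kcnq1*. In KO, *Cd81* stood above *Nap1l4*, and *Ascl2* above *Cdkn1c*. *Phlda2* and *Tssc4* no longer overlapped, at means of 0.975 and 4.08 FPKM.

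The tested members lay on both sides of KvDMR1, and the sides were not tested against each other. On the centromeric side, *Ascl2*, *Cd81* and *Tssc4* had positive log2 differences, and 2 of the 3 were called higher, against 18.8% of all tested genes. On the telomeric side, *Cdkn1c*, *Slc22a18* and *Phlda2* had negative differences and *Nap1l4* a positive one of 0.03, and 1 of the 4 was called lower, against 22.3%. Other genes within 500 kb of the members were placed beside them. Of 30 such genes 13 were tested, and 5 of these were called, 4 higher and 1 lower, against 41.1% of all tested genes, with a median log2 difference of 0.27. On the centromeric side all 6 tested neighbours had positive differences, with *Mir675* called higher. On the telomeric side 3 of 7 were positive, with *Cars*, *Mir7064* and *Dhcr7* called higher and *Tnfrsf22* lower, against 18.8% of all tested genes called higher and 22.3% lower. *Mir7064* lies within *Cars* and is not a separate measurement from it.

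**Figure D3:**
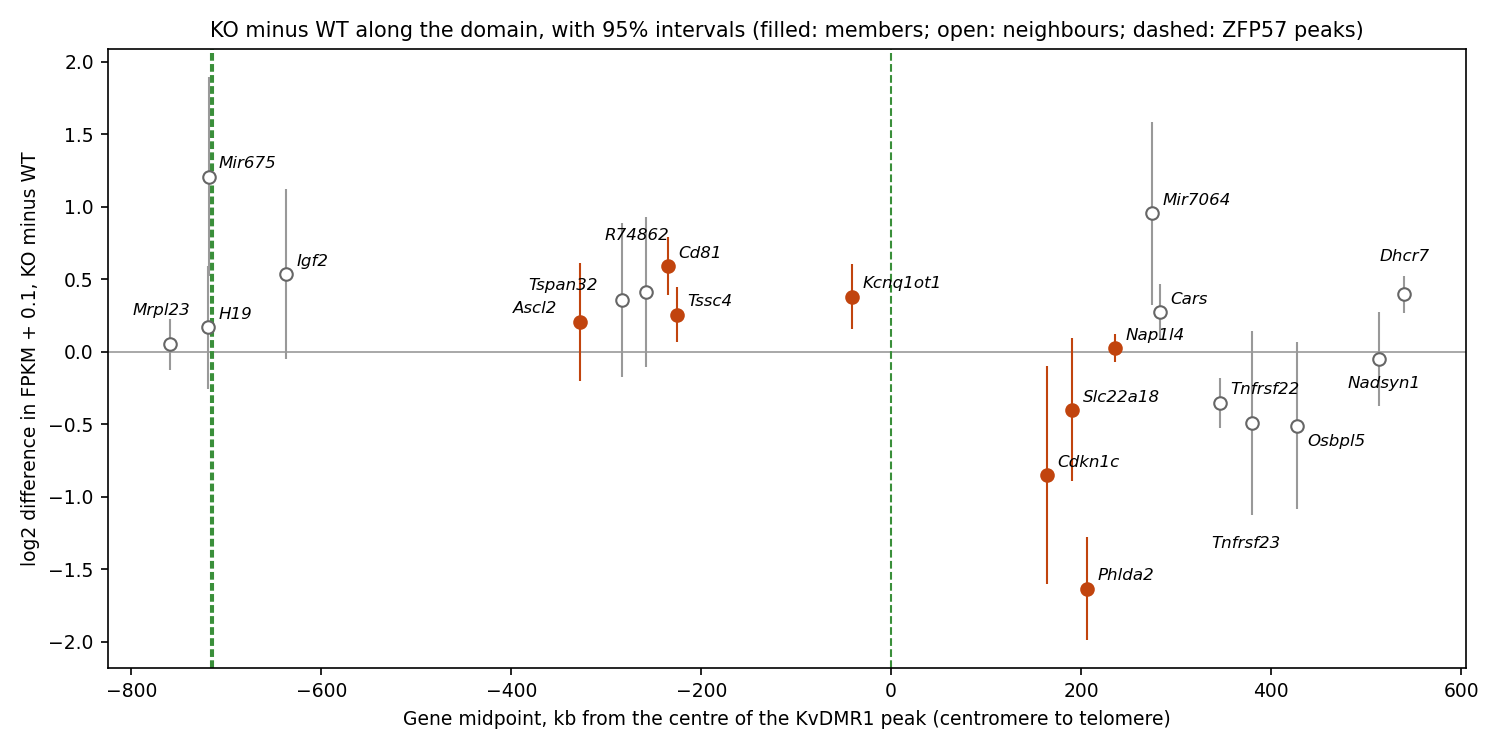
Log2 difference in FPKM + 0.1, KO minus WT, against the position of each gene's midpoint in kb from the centre of the KvDMR1 peak. Filled points are the 8 tested members, open points the 13 tested neighbours within 500 kb, bars are 95% intervals from limma, and dashed lines are ZFP57 peaks. The members left of KvDMR1 lie above 0. To its right, *Cdkn1c*, *Slc22a18* and *Phlda2* lie under 0 and *Nap1l4* just above it. The intervals of *Ascl2*, *Slc22a18* and *Nap1l4* cross 0.

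Among these 30 neighbours are the 12 genes listed for the rest of the region, of which 9 were tested. Of these, 2 were called higher and 1 lower, the same calls as counted above (33.3% called, against 41.1% of all tested genes), and the other 6 ranged from -0.51 to 0.54 in log2 difference. *Ins2*, *Trpm5* and *Tnfrsf26* were under the expression minimum. *Dhcr7*, the last enzyme of cholesterol synthesis, was listed at 10.92, 11.21 and 11.91 FPKM in WT and at 15.15 and 14.78 in KO (log2 difference 0.40, limma adjusted p = 0.00232). *Cars*, the cysteinyl-tRNA synthetase gene, differed by 0.27 (limma adjusted p = 0.0339). *Tnfrsf22*, a decoy receptor of the TNF receptor family that is imprinted in the placenta, was listed at 4.07, 3.93 and 4.24 FPKM in WT and at 3.24 and 3.12 in KO (log2 difference -0.35, limma adjusted p = 0.0104). Its neighbours *Tnfrsf23* and *Osbpl5* were under 0.2 FPKM in all libraries and did not pass the test, at -0.49 and -0.51.

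The *Igf2* and *H19* domain next to it gave no call among its main genes. *H19* was listed at 0.44, 0.62 and 0.52 FPKM in WT and at 0.59 and 0.61 in KO (log2 difference 0.17, limma adjusted p = 0.472). *Igf2*, the insulin-like growth factor gene, was listed at 0.17, 0.12 and 0.08 FPKM in WT and at 0.23 and 0.21 in KO (log2 difference 0.54, limma adjusted p = 0.124). The microRNA entry *Mir675*, which lies within *H19*, was called higher (1.21, limma adjusted p = 0.0170) on 1 to 4 fragments per library. *Mir7064*, within *Cars*, was called higher as well (0.96, limma adjusted p = 0.0285), on 10 to 17 fragments in WT and 22 and 26 in KO. Reads of these short entries cannot be told apart from those of their host transcripts.

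Other antisense RNAs that begin at a ZFP57-bound ICR were set beside *Kcnq1ot1*. *Airn*, the noncoding RNA of the *Igf2r* domain, was lower in KO, at 0.26, 0.21 and 0.24 FPKM in WT and 0.06 and 0.11 in KO (log2 difference -0.87, limma adjusted p = 0.0212). *Igf2r* itself, the receptor that clears insulin-like growth factor 2, was also lower, by -0.49 on the log2 scale (limma adjusted p = 0.00728). *Nespas*, the antisense RNA of the *Gnas* domain, was higher in KO, at 13.38, 13.05 and 14.85 FPKM in WT and 23.12 and 21.64 in KO (log2 difference 0.70, limma adjusted p = 8.73e-04). *Gnas*, which encodes a G protein subunit, differed by -0.18 and was not called (limma adjusted p = 0.238). The 3 noncoding RNAs thus did not share a direction.

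*Kcnq1ot1* is known to act through the histone methyltransferase G9a, through Polycomb complexes and through DNMT1, and ZFP57 acts with KAP1 and SETDB1. A list of 13 genes covered these factors and also *Hnrnpk* and *Zfp445*. All 13 were tested, and 5 were called higher and 2 lower, or 53.8% against 41.1% of all tested genes. *Ehmt2*, which encodes G9a, was higher at 15.77 and 15.56 FPKM in KO against 12.33, 12.19 and 12.70 in WT (log2 difference 0.33, limma adjusted p = 0.00205). *Ezh2*, *Eed* and *Cbx7* of the Polycomb complexes differed by 0.20, 0.19 and 0.23, and *Dnmt1* by 0.13, each called higher. *Suz12*, a core subunit of Polycomb repressive complex 2, was lower, at 139.87, 138.32 and 144.48 FPKM in WT and 71.83 and 64.13 in KO (log2 difference -1.05, limma adjusted p = 3.27e-04). *Suz12* lies on chromosome 11, where 825 of 1224 tested genes were called lower and the median log2 difference was -0.47, and the part of that shift in its value was not tested. *Trim28*, which encodes KAP1, was lower by a small amount (-0.16, limma adjusted p = 0.0139), while *Setdb1* ranged from 20.15 to 21.61 FPKM over all 5 libraries. *Setdb1*, *Ehmt1*, *Ring1*, *Rnf2*, *Hnrnpk* and *Zfp445* were not called.

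Because *Phlda2* and *Ascl2* have known roles in the placenta, markers of trophoblast, the placental lineage, were read in the same libraries. The 6 markers summed to 0.50 to 0.92 FPKM in WT and 2.45 to 2.78 in KO. Most of this was *Eomes*, a transcription factor of trophoblast stem cells and early mesoderm, at 0.51, 0.60 and 0.38 FPKM in WT and 2.13 and 2.40 in KO (limma adjusted p = 8.01e-04). It was the 1 marker called of 3 tested, against 41.1% of all tested genes, with *Cdx2* and *Gata3* not called. *Elf5* and *Hand1* were under the expression minimum and at most 0.06 FPKM in WT and 0.01 in KO, and *Tpbpa*, which marks spongiotrophoblast, was at 0 in all libraries. The 5 endoderm markers summed to 0.62 to 0.68 FPKM in WT and 0.85 to 1.31 in KO, with *Sox7* called higher (limma adjusted p = 0.00408). The rise in this sum was *Sox7* alone, since the other 4 markers summed to 0.47 to 0.59 FPKM in WT and 0.37 to 0.41 in KO. Their part in the differences of the domain genes was not tested.

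Over the alternatives, the log2 difference of *Phlda2* ranged from -1.79 to -1.10 and that of *Cdkn1c* from -1.34 to -0.29, while *Nap1l4* stayed between -0.0036 and 0.05.

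**Figure D4:**
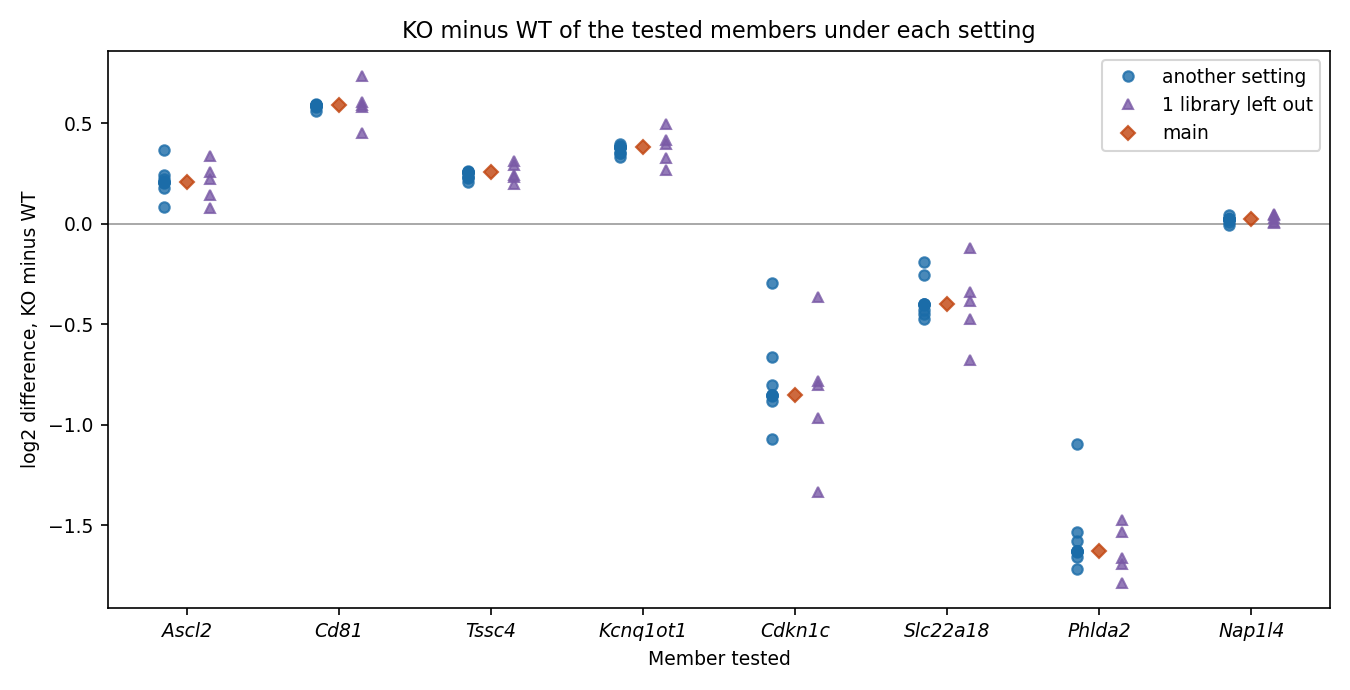
Log2 difference, KO minus WT, of the 8 tested members, in chromosomal order, under each setting of the fit. Red diamonds are the reported fit, blue circles are other settings, and purple triangles are fits without 1 library. *Phlda2* lies under 0 and *Cd81* above 0 in each of them, and *Cdkn1c* has the widest range.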

How the data were processed

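RNA-seq used total RNA depleted of ribosomal RNA (ScriptSeq libraries, paired reads of 150 bp) from 3 WT and 2 KO samples. The authors deposited FPKM per gene, rounded to 2 decimals, and 2 lists of ZFP57 peak positions in mm10, the first holding peaks called in at least 2 WT replicates. The submitters' processing notes name FastQC 0.11.5, Trim Galore 0.2.7, BWA 0.6.2, Picard, MACS2 2.1.0 and STAR 2.5.2 without roles. The counting, its annotation and its strand setting are not given in the sources used here, nor is the origin of the hybrid list.

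The members and gene lists were chosen with earlier results of these data known. Genes were placed by RefSeq on GRCm38.p6, 23190 by symbol and 1095 by synonym, with 13 ambiguous and 111 unmatched. Sequences and promoter windows (250 bases before to 50 after the start) are from RefSeq. The limma fit (3.58.1, eBayes with trend, R 4.3.3) took log2 of FPKM plus 0.1 for the 14612 of 24409 genes averaging 0.1 FPKM or more, with Benjamini-Hochberg adjustment, and was checked on simulated data. Fragments were estimated from the smallest step between FPKM values of low genes and the RefSeq exon length. Of values of transcripts of 60 to 500 bp, 88 to 97.3% came within 0.25 of a whole fragment. Poisson 95% intervals cover counting error only. Tables used pandas 2.3.3 and numpy 2.4.6 on Python 3.11.15, permutation tests used scipy 1.17.1, and plots used matplotlib 3.10.9. Genes eligible to be named were the members, the listed genes, *Zfp57*, and the called neighbours with the 3 highest and 3 lowest log2 differences. Alternatives changed pseudocount, filter, scaling, variance model, block, libraries, thresholds and windows. KAP1 and H3K9me3 ChIP-seq and the hybrid libraries were not analysed here.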

Additional observations from a re-analysis of the deposited data

How the results depend on the processing

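*Phlda2*, *Cd81* and *Kcnq1ot1* kept their direction in all 15 alternative fits. *Phlda2* and *Cd81* also kept their call wherever both KO libraries were used. Leaving out each library in turn gave 2 to 4 called members, 1 to 2 of them higher and 1 to 2 lower, and 1 to 3 called neighbours, while the share of all tested genes called was 28.0 to 32.7%, against 41.1% with all libraries. *Tssc4* lost its call without any 1 WT library, and *Kcnq1ot1* without WT replicate 2 or WT replicate 3. With a log2 difference of at least 1 in size required, 1 member was called, 0 higher, and 1 neighbour, against 8.02% of all tested genes. At an adjusted p under 0.01, 2 members were called, 1 higher, and 1 neighbour, against 22.5% of all tested genes. Without a variance trend 3 neighbours were called, against 36.5% of all tested genes. Within 100 kb there were 3 called neighbours and 1 peak, and within 1000 kb 7 called neighbours and 4 peaks, against 41.1% of all tested genes called. Centring on medians turned *Nap1l4* to -0.0036. The KO minus WT difference in the log2 ratio of *Kcnq1ot1* to *Cdkn1c* ranged from 0.62 to 1.83, over alternatives chosen after seeing the data. The exact permutation p was 0.1 with other pseudocounts and 0.333 without 1 WT library, each the smallest value possible there. Without 1 KO library no p was computed.

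With the replicate number as a block, 3 members and 2 neighbours were called, and 3012 genes in all (20.6%) against 6002 (41.1%). WT replicate 3 has no same-numbered KO library, so it has no weight in the differences of this fit. Leaving that library out without a block gave 28.9% of tested genes called. Same-numbered WT and KO libraries did not deviate together (correlations -0.068 and -0.036 over 14612 genes), and the labels give the numbers no shared meaning. Low genes rest on few fragments, so the values of *Kcnq1* and *Th* are imprecise at this depth. With no expression minimum *Th* passed the threshold and *Kcnq1* did not.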
